A study of Homo sapiens with 18 samples.

Results

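The genes described here encode collagens, laminins and other proteins of the basement membrane. They were taken from the gene table as every protein-coding gene whose symbol is that of a collagen alpha chain or of a laminin alpha, beta or gamma chain, together with the nidogens NID1 and NID2, perlecan (HSPG2), agrin (AGRN), fibronectin (FN1) and SPARC. The rule found 62 genes of 57808 in the table, of which 19028 are protein-coding. They comprise 6 chains of collagen IV, 12 laminin chains, 11 fibrillar collagens, 10 fibril-associated collagens, 5 chains of collagen VI, 4 transmembrane collagens, 3 network collagens, 2 multiplexins, 1 anchoring collagen, 2 other collagens and the 6 further proteins.

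Basement membranes are thin sheets of matrix on which epithelial and endothelial cells sit. Laminins, trimers of an alpha, a beta and a gamma chain, form the sheet at the cell surface, trimers of collagen IV form a covalent net beside it, and nidogens, perlecan and agrin connect them. In the pancreas such a sheet surrounds ducts, acini and blood vessels, and beta cells bind laminin through integrins. Fibrillar collagens belong to the connective tissue around these structures and are made mostly by mesenchymal cells.

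The libraries came from MEL1, an established human embryonic stem cell line in which GFP reports the insulin gene. RNA-seq was made from undifferentiated cells (hPSC), from definitive endoderm (DE, the germ layer of gut and pancreas) and from GFP+ and GFP- cells sorted out of stem-cell-derived beta-like cells (sBC). Ribosome footprints were sequenced after pull-down with a FLAG antibody (IP) from hPSC, DE and GFP+ sBC, and without pull-down (Ribo) from hPSC and DE. For GFP+ sBC the pull-down is given by the library type and antibody labels, while the titles name only ribosome profiling. All hPSC and DE groups carried an RPL22-FLAG ribosomal protein, the GFP+ sBC used for IP had received RPL22-FLAG by lentivirus, and the labels give no FLAG construct for the GFP+ and GFP- RNA. The undifferentiated line was grown on Matrigel, itself a basement membrane matrix, and the sBC in stirred suspension. Each of the 9 groups held 2 libraries, and no label states that both were grown apart, so the p-values speak only of library-to-library spread, which may be technical.

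Library totals ran from 6.61 to 92.53 M counts, with the IP libraries of GFP+ sBC and the first of DE at the low end. Protein-coding genes took 54.6% and 62.8% of the counts in IP of GFP+ sBC and 40.5% in the first DE Ribo library, against 76.0% or more elsewhere. The 2 GFP- RNA libraries differed from each other more than any other pair, with a Spearman correlation of 0.894 and with mitochondrially encoded genes at 0.42% and 4.35% of counts. INS had 4400 and 4830 counts per 1e6 counts (CPM) in GFP+ RNA, against 1700 and 981 CPM in GFP- RNA, so the GFP- libraries still held insulin RNA. Of 10 definitive endoderm markers all 10 rose in DE RNA against hPSC RNA, and of 9 pluripotency markers 8 fell and 1 rose. All levels below are CPM scaled by TMM within an assay, without division by transcript length, so they compare libraries and not genes.

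The summed level of the 62 genes was highest in GFP- RNA and about equal in DE and GFP+ RNA. It was 520 to 549 CPM in hPSC RNA, 2200 to 2290 CPM in DE RNA, 2090 to 2220 CPM in GFP+ RNA and 5770 to 9570 CPM in GFP- RNA. In IP footprints the sum was 158 to 167 CPM in hPSC, 434 to 594 CPM in DE and 3760 to 4840 CPM in GFP+ sBC. In Ribo it was 94.1 to 108 CPM in hPSC and 426 to 475 CPM in DE. In bulk samples such as these, fewer cells of a type and less RNA per cell cannot be told apart.

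**Figure D1:**
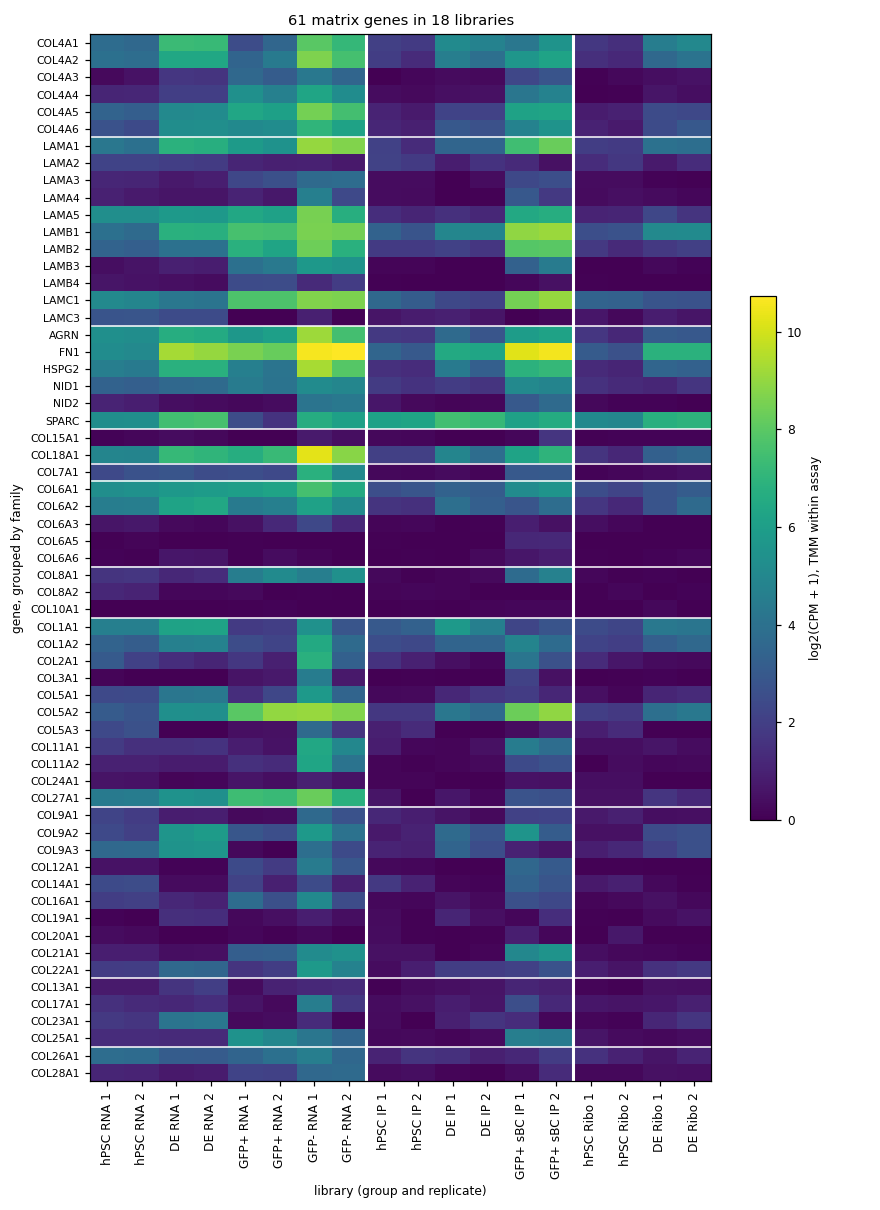
Level of 61 of the 62 genes as log2(CPM + 1) (colour) in each of 18 libraries (columns, in order of stage within RNA, IP footprints and Ribo), with genes in rows grouped by family. FN1, LAMB1, LAMC1 and COL5A2 are bright in GFP- RNA and in IP footprints of GFP+ sBC, and COL10A1 is dark throughout.

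The 6 chains of collagen IV lie in the genome as 3 pairs, each with its members in opposite orientation and their starts close together. These short stretches between the starts, as promoter windows place them, are shown because the pairs can be compared as units. The pairs are COL4A1 and COL4A2 on chromosome 13, COL4A3 and COL4A4 on chromosome 2, and COL4A5 and COL4A6 on chromosome X. The sequences are from RefSeq promoter windows of GRCh38.p14, plus strand, 5′ to 3′, with the box CCAAT or its reverse complement ATTGG in capitals.
COL4A1 and COL4A2, chr13:110307158-110307283: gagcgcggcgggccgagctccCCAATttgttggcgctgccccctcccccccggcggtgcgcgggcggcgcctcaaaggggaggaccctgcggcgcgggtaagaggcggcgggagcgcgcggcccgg
COL4A3 and COL4A4, chr2:227164374-227164455: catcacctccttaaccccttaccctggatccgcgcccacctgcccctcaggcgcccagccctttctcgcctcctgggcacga
COL4A5 and COL4A6, chrX:108439588-108439708: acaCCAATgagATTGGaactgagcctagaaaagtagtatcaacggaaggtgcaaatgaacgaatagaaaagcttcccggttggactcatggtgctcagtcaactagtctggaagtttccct
The first stretch is the whole 126 bases between the 2 starts. The other 2 are the parts that both genes' windows share. These were 82 of 418 bases for COL4A3 and COL4A4 and 121 of 379 bases for COL4A5 and COL4A6. Here the start of COL4A4 is that of its 1 promoter window, at 227164205. The coordinates of the gene run to 227164488. The 82 bases therefore lie inside the annotated COL4A4 gene and not between the ends of the 2 genes. G and C made up 80.2%, 67.1% and 44.6% of the 3 stretches in that order. CCAAT, on either strand, occurred 1 time in the first, in none of the 82 bases of the second and 2 times in the third.

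Across promoters of the genes at large these letters were common. RefSeq windows of 250 bases before to 50 bases after a start were found for 46 of the 62 genes, as 60 windows. CCAAT on either strand was in 19 of them (31.7%), against 34.6% of 35116 windows of all genes. The GC box GGGCGG was in 36 (60.0%), against 45.0% of all windows, and TATAAA was in 8 (13.3%), against 11.5%. A match is a description of letters and shows no binding.

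The step from hPSC to DE was followed in RNA, in Ribo and in IP footprints. In RNA 59 of the 62 genes passed the filter on low counts, and 31 of these rose and 19 fell in DE. Over all 20634 genes tested 75.6% were called, 38.7% higher and 36.8% lower, so the share called was near the background and the share that rose, 31 of 59, lay above it. The median log2 fold change of the members was 0.51, against 0.01 over all genes. With all 8 RNA libraries in the fit 21 of 60 members rose and 10 fell, where 6561 of all 23321 genes were called.

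All 6 collagen IV chains rose in DE RNA. COL4A1, one of the chains found in nearly every basement membrane, had 157 and 151 CPM in DE RNA, against 12.7 and 11.3 CPM in hPSC RNA. Its log2 fold change was 3.73 ± 0.07 (SE; adjusted p = 1.25e-11, 2 libraries per group). COL4A2, its partner in the trimer, had 83.6 and 82.8 CPM in DE, against 14.6 and 13.1 CPM in hPSC (2.64 ± 0.07). The groups did not overlap for either gene. COL4A5 and COL4A6, chains of smooth muscle and some epithelial basement membranes, rose by 1.99 ± 0.09 and 3.0 ± 0.11. COL4A3 and COL4A4, known from the kidney filter, were at 2.26 and 2.04 CPM and 2.96 and 2.93 CPM in DE, against 0.191 and 0.422 CPM and 1.13 and 1.21 CPM in hPSC. They rose by 2.85 ± 0.29 and 1.38 ± 0.16.

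Footprints gave the same direction for the 4 collagen IV chains tested in Ribo. COL4A1 had 22.3 and 31.2 CPM in DE Ribo, against 2.32 and 1.76 CPM in hPSC Ribo (3.71 ± 0.27, adjusted p = 0.00155). In IP it had 34.1 and 26.2 CPM in DE, against 3.11 and 2.51 CPM in hPSC (3.42 ± 0.46, adjusted p = 0.00365). COL4A2 rose by 3.15 ± 0.29 in Ribo and 3.08 ± 0.43 in IP. COL4A5 rose by 2.29 ± 0.29 and 1.92 ± 0.29, and COL4A6 by 2.71 ± 0.35 and 2.47 ± 0.38.

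**Figure D2:**
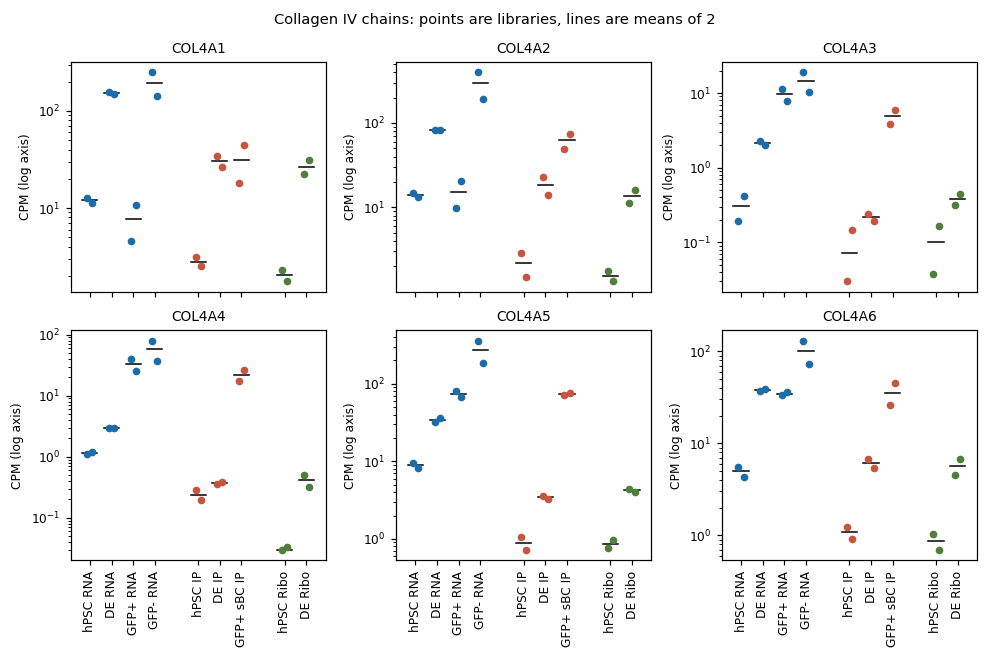
CPM (log axis) of the 6 collagen IV chains in each library by group, with RNA in blue, IP footprints in red, Ribo in green and a line at the mean of 2 libraries. A value of 0 is drawn at 0.03 CPM. COL4A1 and COL4A2 are lower in GFP+ RNA than in DE RNA and in GFP- RNA, while COL4A3, COL4A4 and COL4A5 are higher in GFP+ RNA than in DE RNA.

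Of 12 laminin chains 5 were higher and 4 lower in DE RNA, shares near the 38.7% and 36.8% of all genes. LAMA1 and LAMB1, which with LAMC1 build the laminin of the early embryo, rose. LAMA1 had 115 and 106 CPM in DE RNA, against 18 and 14.7 CPM in hPSC RNA (2.81 ± 0.10, adjusted p = 2.84e-07). LAMB1 had 113 and 107 CPM in DE, against 14.8 and 12.1 CPM in hPSC (3.08 ± 0.10). LAMC1, their gamma chain, had 18.3 and 16.3 CPM in DE, against 31.7 and 28.3 CPM in hPSC, and fell by 0.74 ± 0.08. The alpha and beta chains thus moved against the gamma chain, with no overlap of libraries in any of them.

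In Ribo LAMA1 rose by 2.43 ± 0.19 and LAMB1 by 2.65 ± 0.17, and LAMC1 changed by -0.74 ± 0.18 (adjusted p = 0.0311). IP footprints gave 2.12 ± 0.43 for LAMA1, 1.90 ± 0.27 for LAMB1 and -1.37 ± 0.31 for LAMC1 (adjusted p = 0.0201). LAMA5 and LAMB2, chains of mature epithelial and vascular laminins, rose by 0.49 ± 0.05 and 0.77 ± 0.09 in RNA. Neither RNA call held with all 8 RNA libraries in the fit (0.44 and 0.72, adjusted p = 0.556 and 0.289). In Ribo LAMA5 was at 1.41 ± 0.41 (adjusted p = 0.0475), past the threshold, and LAMB2 at 0.51 ± 0.36 (adjusted p = 0.312). The Ribo call of LAMA5 was lost with RLE size factors (adjusted p = 0.0501), by DESeq2 (adjusted p = 0.0586), with the replicate block (adjusted p = 0.0811), and without either hPSC library or the first DE library (0.91 to 1.47). That of LAMC1 was lost with the replicate block (adjusted p = 0.0826), without either hPSC library and without the second DE library (-0.78 to -0.68). In IP LAMA5 and LAMB2 were at 0.11 ± 0.31 (adjusted p = 0.912) and 0.06 ± 0.26 (adjusted p = 0.928). With 1 IP library left out, LAMA1 (1.66 to 2.13) missed the threshold without either DE library or the second hPSC library. LAMC1 (-1.46 to -1.09) did so without either DE library or the first hPSC library.

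Of the 6 linkers and glycoproteins 5 rose in DE RNA. FN1, the fibronectin to which migrating cells attach, had 628 and 530 CPM in DE RNA, against 36.5 and 31.8 CPM in hPSC RNA (4.14 ± 0.12, adjusted p = 9.51e-07). HSPG2, the heparan sulfate proteoglycan perlecan, had 110 and 113 CPM in DE, against 23.2 and 20.4 CPM in hPSC (2.41 ± 0.07). SPARC, a collagen-binding protein of the matrix, had 179 and 195 CPM in DE, against 37.9 and 38.0 CPM in hPSC (2.35 ± 0.06). AGRN rose by 1.38 ± 0.06 and NID1 by 0.45 ± 0.09, and neither passed with all 8 RNA libraries in the fit (1.33 and 0.39, adjusted p = 0.0715 and 0.224). NID2 was the exception at 0.301 and 0.249 CPM in DE, against 1.09 and 0.886 CPM in hPSC (-1.79 ± 0.27). Footprints of FN1 rose by 4.17 ± 0.23 in Ribo and 3.27 ± 0.29 in IP, those of HSPG2 by 2.91 ± 0.24 and 3.07 ± 0.45, and those of SPARC by 1.86 ± 0.16 and 1.14 ± 0.24. The IP call of SPARC was lost without the first DE library (1.0, adjusted p = 0.0618) and without either hPSC library (1.04 and 1.21, adjusted p = 0.138 and 0.0868).

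Among the other collagens, COL18A1, the multiplexin whose end fragment is endostatin, rose by 2.31 ± 0.06 in DE RNA. COL1A1 and COL1A2, the chains of collagen I, rose by 1.69 ± 0.05 and 1.55 ± 0.10, but did not pass with all 8 RNA libraries in the fit (1.64 and 1.5, adjusted p = 0.126 and 0.18). COL5A2, a chain of the fibril-nucleating collagen V, rose by 2.60 ± 0.10. The fibril-associated COL9A2 and COL9A3 rose by 3.93 ± 0.19 and 2.03 ± 0.06, while COL9A1, the remaining chain of collagen IX, fell by 1.86 ± 0.19. COL23A1, a transmembrane collagen, rose by 2.97 ± 0.11. COL14A1, a fibril-associated collagen, had 0.235 and 0.249 CPM in DE RNA, against 4.37 and 4.60 CPM in hPSC RNA, and fell by 4.15 ± 0.20. COL5A3 had 1 count in each DE library, against 279 and 378 counts in the hPSC libraries.

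In Ribo 22 of 36 members tested rose and 3 fell, where 34.1% of all genes were called, 17.2% higher and 16.9% lower. The members' median was 1.91, against 0.03 over all genes. In IP 17 of 51 rose and 4 fell, where 22.3% of all genes were called, 9.78% higher and 12.5% lower, with a median of 0.91 against -0.07. The Ribo calls, of members and of all genes alike, rested on having both hPSC libraries. With 1 of them left out few genes of any kind were called. The members' median in those fits was 1.93 without the first and 1.82 without the second. In IP the members' median was 0.46 to 0.81 with 1 library left out, and fewer genes of all kinds were called there.

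Footprints were then set against RNA in 1 model, to ask whether footprints per RNA changed between DE and hPSC. With Ribo, 0 of 58 members passed, where 0.314% of all genes were called, 0.24% higher and 0.0738% lower. An unadjusted p under 0.05 was found for 12 members, against 3352 of all 21681 genes. DESeq2 called 1 member higher and 1 lower, against 787 and 647 of all genes. With IP, 0 of 59 passed, where 0.167% of all genes were called, 0.0991% higher and 0.0675% lower. An unadjusted p under 0.05 was found for 3 members, against 2354 of all 22210 genes. DESeq2 called 1 member lower, against 528 of all genes. The members' medians were 0.24 with Ribo and -0.06 with IP on the log2 scale, against 0.14 and 0.16 over all genes.

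The 2 footprint assays were also compared with each other. IP over Ribo called 0 of 39 members in hPSC and 0 of 39 in DE, where 1.15% and 0.863% of all genes were called. In hPSC 0.0899% of genes were higher in IP and 1.06% lower, and in DE 0.06% were higher and 0.803% lower. At an unadjusted p under 0.05 there were 3 members in hPSC and 4 in DE, against 2345 and 3276 of all 16679 genes. DESeq2 called 1 member higher in hPSC and none in DE, against 735 and 1035 of all genes called in either direction. The members' median log2 ratios of IP over Ribo were -0.04 in hPSC and -0.21 in DE.

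The sort of sBC asked which matrix genes set GFP+ cells apart from the GFP- cells of the same differentiation. Of 56 members tested 17 fell in GFP+ RNA and none rose; 1 had an unadjusted p under 0.05 and a higher level in GFP+, and DESeq2 called 1 higher. Over all genes 2.43% of 19797 were called, 0.0808% higher and 2.35% lower, so 17 of 56 lay well above that background. The members' median log2 fold change was -1.93, against 0 over all genes, and 53 of the 56 were below 0. The count of lower members was 31 to 34 without a filter, by DESeq2, with all 8 RNA libraries or with a replicate block. Those settings also called more genes at large, 1142 to 1480 lower over all genes, against 465 in the main fit. Without the second GFP- library the members' median was -2.26, and far more genes of all kinds were called.

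**Figure D3:**
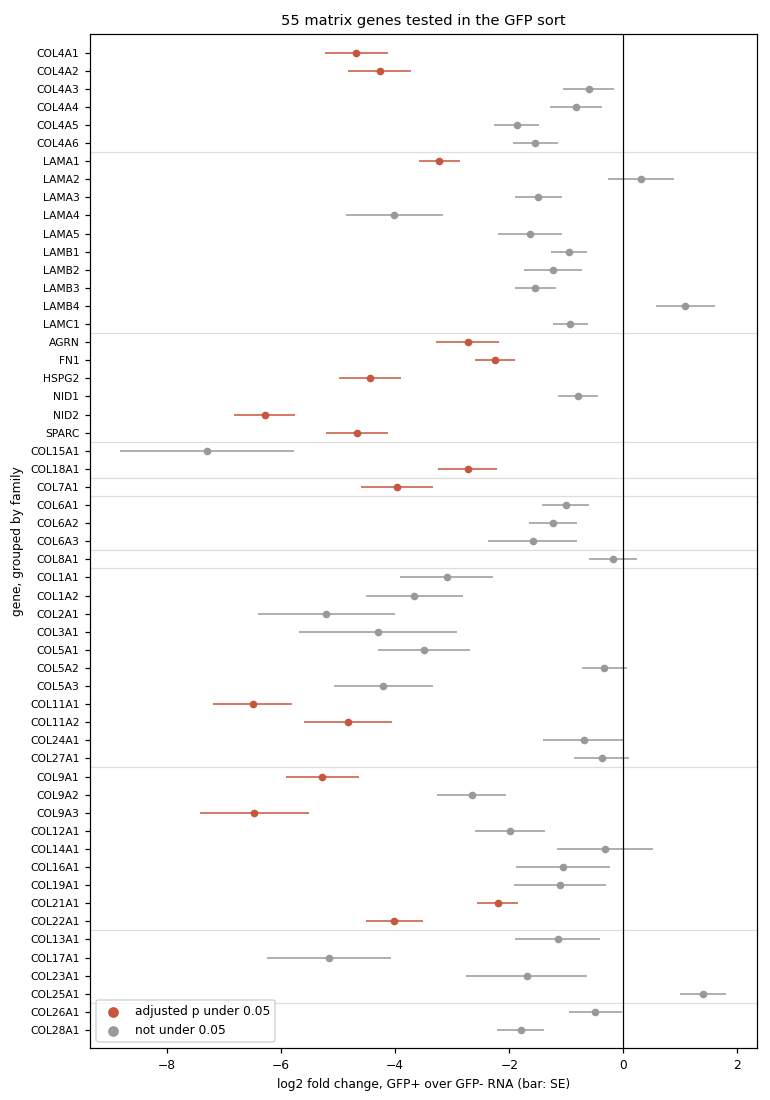
Log2 fold change of GFP+ over GFP- RNA with its SE for 55 of the 56 genes tested, grouped by family, with adjusted p under 0.05 in red. COL4A1 and COL4A2 lie below -4, the other 4 chains of collagen IV between -2 and 0, and COL25A1, LAMB4 and LAMA2 lie above 0.

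Of the 6 collagen IV chains each lay below 0 in the sort, and 2 passed. COL4A1 had 4.62 and 10.7 CPM in GFP+ RNA, against 249 and 142 CPM in GFP- RNA (-4.68 ± 0.56, adjusted p = 0.00795). COL4A2 had 9.84 and 20.7 CPM in GFP+, against 397 and 191 CPM in GFP- (-4.27 ± 0.55, adjusted p = 0.0106). Without the first GFP- library they were at -4.24 (adjusted p = 0.0664) and -3.67 (adjusted p = 0.0553). COL4A5 had 80.5 and 68.2 CPM in GFP+, against 358 and 184 CPM in GFP-, and COL4A6 had 33.3 and 36.3 CPM, against 130 and 72.7 CPM. Their fold changes of -1.87 ± 0.40 (adjusted p = 0.0605) and -1.54 ± 0.39 (adjusted p = 0.103) did not pass, although the libraries did not overlap. COL4A3 and COL4A4 were at -0.61 ± 0.44 (adjusted p = 0.659) and -0.83 ± 0.46 (adjusted p = 0.562). The difference between the pairs was itself not tested.

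Among the laminin chains LAMA1 fell in the sort. It had 56.9 and 43 CPM in GFP+, against 517 and 414 CPM in GFP- (-3.23 ± 0.36, adjusted p = 0.00647). LAMB1 had 194 and 185 CPM in GFP+, against 381 and 350 CPM in GFP-, and LAMC1 had 210 and 211 CPM, against 411 and 386 CPM. Both were lower in each GFP+ library, but -0.95 ± 0.31 (adjusted p = 0.208) and -0.93 ± 0.31 (adjusted p = 0.224) did not pass. LAMA3 and LAMB3, chains of the laminin that anchors epithelia, were at -1.49 ± 0.41 (adjusted p = 0.132) and -1.54 ± 0.36 (adjusted p = 0.0776). LAMA5 and LAMB2 were at -1.63 ± 0.56 (adjusted p = 0.243) and -1.24 ± 0.51 (adjusted p = 0.381). LAMC3, which was not tested in the sort, had 0 counts in both GFP+ libraries, against 40 and 2 counts in GFP- libraries.

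Of the linkers and glycoproteins 5 of 6 fell. NID2 had 0.172 and 0.266 CPM in GFP+ RNA, against 16.5 and 18.4 CPM in GFP- RNA (-6.29 ± 0.53, adjusted p = 0.00311). NID1, which like NID2 ties laminin to collagen IV, had 20.9 and 16 CPM in GFP+, against 34.7 and 29.2 CPM in GFP- (-0.80 ± 0.35, adjusted p = 0.427). HSPG2 had 23.8 and 16.6 CPM in GFP+, against 633 and 238 CPM in GFP- (-4.44 ± 0.55, adjusted p = 0.0087). SPARC had 4.67 and 1.95 CPM in GFP+, against 98.8 and 68.1 CPM in GFP- (-4.67 ± 0.54, adjusted p = 0.00744). FN1 had 381 and 301 CPM in GFP+, against 1530 and 1700 CPM in GFP- (-2.25 ± 0.35, adjusted p = 0.0209). AGRN, the proteoglycan that also clusters receptors at nerve endings, had 49.9 and 64.7 CPM in GFP+, against 576 and 182 CPM in GFP- (-2.73 ± 0.55, adjusted p = 0.0476). FN1 lost its call without either GFP+ library (-2.43 and -2.09, adjusted p = 0.106 and 0.264), and AGRN without the first (-2.55, adjusted p = 0.0604).

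Collagens outside type IV made up 8 of the 17. COL11A1 and COL11A2, chains of a minor fibrillar collagen, fell by 6.50 ± 0.69 and 4.83 ± 0.77. COL9A1 and COL9A3 of collagen IX, which like collagen XI is best known from cartilage, fell by 5.28 ± 0.64 and 6.47 ± 0.95. COL22A1, a fibril-associated collagen, fell by 4.02 ± 0.50, and COL21A1, another, by 2.20 ± 0.36. COL7A1, the collagen of the fibrils that anchor skin epithelium, had 4.99 and 4.21 CPM in GFP+ RNA, against 113 and 31.1 CPM in GFP- RNA (-3.97 ± 0.63). COL18A1 had 102 and 153 CPM in GFP+, against 1240 and 456 CPM in GFP- (-2.73 ± 0.52). COL18A1 lost its call without the first GFP+ library (-2.47, adjusted p = 0.0836) and COL21A1 without either GFP+ library (-2.17 and -2.24, adjusted p = 0.282 and 0.272).

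The chains of collagens I, II, III and VI described next and COL5A2 did not pass in the sort. COL1A1 had 2.58 and 3.01 CPM in GFP+ RNA, against 41.8 and 6.14 CPM in GFP- RNA (-3.10 ± 0.81, adjusted p = 0.109). COL1A2 had 4.65 and 3.54 CPM in GFP+, against 91.7 and 12.2 CPM in GFP- (-3.67 ± 0.85, adjusted p = 0.0755). COL3A1 had 17 and 24 counts in GFP+ libraries, against 937 and 23 counts in GFP- libraries, so its second GFP- library lay close to GFP+. COL2A1 had 2.38 and 0.933 CPM in GFP+, against 113 and 8.90 CPM in GFP-. COL5A2 was at 256 and 501 CPM in GFP+, against 536 and 415 CPM in GFP- (-0.33 ± 0.40, adjusted p = 0.765), with overlapping groups. COL6A1, a chain of the microfibril collagen VI, was at -1.01 ± 0.41 (adjusted p = 0.364).

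The gap between the 2 GFP- libraries differed by family. Over 11 fibrillar collagens the first library was higher for all 11, with a median ratio of 5.34 of the first over the second. The ratio was 1.90 over 6 collagen IV chains and 1.18 over 11 laminin chains. COL3A1 had the largest ratio of all 56 members tested, 32.0, and LAMB4 the smallest, 0.52. These ratios describe 2 libraries and were not tested.

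COL25A1, a transmembrane collagen known from neurons, was the member with the highest fold change toward GFP+ cells. It had 43.7 and 29.9 CPM in GFP+ RNA, against 17.4 and 10.4 CPM in GFP- RNA, without overlap. The change of 1.40 ± 0.41 (adjusted p = 0.157) missed the threshold.

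Markers of other pancreatic cells moved with the sort. The 12 duct and progenitor genes summed to 298 to 445 CPM in GFP+ RNA, against 1910 to 2550 CPM in GFP- RNA, and 7 of 12 fell. They summed to 1620 to 1930 CPM in DE RNA, so this sum does not mark duct or progenitor cells alone. The 11 acinar genes summed to 11.9 to 15.8 CPM in GFP+, against 106 to 119 CPM in GFP-, and 1 of 6 tested fell. The 14 mesenchyme genes summed to 139 to 161 CPM in GFP+, against 207 to 428 CPM in GFP-. They summed to 414 to 428 CPM in hPSC RNA and 1110 to 1390 CPM in DE RNA, so the sum does not mark mesenchymal cells alone. Of the 8 tested in the sort 2 fell. The 2 that fell were PDGFRB, a receptor of pericytes and fibroblasts (-3.59 ± 0.70, adjusted p = 0.0429), and the smooth muscle actin ACTA2 (-2.42 ± 0.39, adjusted p = 0.0235). Both lost their call without either GFP+ library, and PDGFRB also without the first GFP- library (-3.24, adjusted p = 0.0972). TAGLN, another smooth muscle gene, was at -2.99 ± 0.66 (adjusted p = 0.0666). The fibroblast proteoglycans DCN and LUM, picked after their values were seen, were near 0 in both: DCN had 0.201 and 0.187 CPM in GFP+, against 0.138 and 0.0881 CPM in GFP-, and LUM 0 and 0.0799 CPM, against 0.506 and 0.264 CPM. Endothelial and immune genes had 0 of 5 and 0 of 4 called. The 9 parietal endoderm and trophoblast genes, which include the keratin KRT8, summed to 150 to 207 CPM in GFP+, against 720 to 1390 CPM in GFP-. Of 6 tested 2 fell. In DE RNA the 9 genes summed to 2000 to 2390 CPM, so the sum does not mark those cells alone. Over all genes 2.35% fell in the sort, and 0 of 5 and 0 of 4 are near that share. The part of any of these cell types in the matrix result was not tested.

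Genes that act on the matrix were read from lists, all chosen with earlier results known. Of 18 other basement membrane components tested 8 fell in GFP+ RNA, with a list median of -2.77. They included NTN4, a netrin that binds laminin (-5.37 ± 0.73), the matricellular CCN1 (-4.86 ± 0.97) and CCN2 (-4.23 ± 0.78), and TINAGL1 (-3.34 ± 0.46). Of 28 receptors 5 fell, among them the integrin chains ITGB6 (-6.10 ± 0.61) and ITGA5, the fibronectin receptor chain (-3.31 ± 0.45). Syndecan SDC1 (-4.46 ± 0.77) and the hyaluronan receptor CD44 (-2.29 ± 0.39) fell too, and the list median was -0.76. Of 24 proteases and inhibitors 6 fell, such as the metalloproteases MMP7 (-5.81 ± 0.95), MMP1 (-5.75 ± 0.63) and MMP10 (-5.33 ± 0.79), with a median of -0.56. Of 29 genes for collagen folding, modification and crosslinking 1 fell, the collagen chaperone SERPINH1 (-2.14 ± 0.41), with a median of -0.32. None of these 4 lists had a member that rose. Over all genes 2.35% fell, and 1 of 29 is near that share. Without the first GFP+ library ITGA5 (-3.17), CD44 (-1.99) and SERPINH1 (-2.19) missed the threshold. CD44 (-2.67) and SERPINH1 (-2.10) also did without the second, and CCN1 did without either GFP- library (-3.45 and -5.56).

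Each sorted fraction was next compared with DE, the last stage before the sort that had RNA. The 2 comparisons share the DE libraries, so their values are given side by side. In GFP+ RNA 22 of 60 members rose and 21 fell against DE, where 60.7% of all 23321 genes were called, 29.9% higher and 30.9% lower. In GFP- RNA 43 of 60 rose and 6 fell, where 58.5% were called, 30.4% higher and 28.1% lower. The members' medians were 0.16 for GFP+ and 2.50 for GFP-, against 0 and 0.09 over all genes.

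LAMC1, LAMB1, LAMB2 and LAMB3 were above DE in both fractions. LAMC1 rose by 3.61 ± 0.18 in GFP+ and 4.53 ± 0.19 in GFP-. LAMB1 rose by 0.78 ± 0.18 and 1.73 ± 0.18, LAMB2 by 2.64 ± 0.48 and 3.87 ± 0.50, and LAMB3 by 4.25 ± 0.29 and 5.79 ± 0.31. LAMA3 rose by 2.54 ± 0.29 in GFP+ and 4.02 ± 0.31 in GFP-. LAMA5 was at 0.56 ± 0.49 in GFP+ (adjusted p = 0.349) and rose by 2.19 ± 0.51 in GFP-. NID2 was at -0.32 ± 0.37 in GFP+ (adjusted p = 0.511), against a rise of 5.98 ± 0.34 in GFP-. LAMC3, the gamma chain of some nerve and retinal laminins, had no count in GFP+ RNA and 683 counts in DE RNA. It was at least 108-fold lower in GFP+, taking 3 counts over the 2 GFP+ libraries as the floor. LAMB1 in GFP+ missed the threshold without either DE library (0.81 and 0.73, adjusted p = 0.0502 and 0.0686).

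Against DE the collagen IV pairs moved apart in GFP+ RNA. COL4A1 fell by 4.33 ± 0.46 in GFP+ and was at 0.34 ± 0.40 in GFP- (adjusted p = 0.48). COL4A2 fell by 2.44 ± 0.44 in GFP+ and rose by 1.82 ± 0.43 in GFP-. COL4A3 rose by 2.16 ± 0.43 and 2.76 ± 0.44 and COL4A4 by 3.47 ± 0.42 and 4.29 ± 0.44, each in GFP+ and GFP- in that order. COL4A5 rose by 1.12 ± 0.31 in GFP+ and 2.99 ± 0.33 in GFP-. COL4A6 was at -0.13 ± 0.29 in GFP+ (adjusted p = 0.701) and rose by 1.40 ± 0.29 in GFP-. Within the head-to-head pairs, COL4A1 and COL4A2 both fell in GFP+, COL4A3 and COL4A4 both rose, and COL4A5 passed while COL4A6 did not. COL4A5 in GFP+ missed the threshold without either DE library (1.05 and 1.17) and without the first GFP+ library (1.04). COL4A2 in GFP- missed it without either DE library (1.82 and 1.79, adjusted p = 0.0553 and 0.0568).

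Other members with large changes in GFP+ against DE were COL9A3 (-8.84 ± 0.81), COL23A1 (-6.12 ± 0.93), SPARC (-5.82 ± 0.45) and COL1A1 (-4.72 ± 0.81), which fell, and COL25A1 (4.71 ± 0.35), COL21A1 (4.63 ± 0.25), the network collagen COL8A1 (4.30 ± 0.37) and COL5A2 (3.27 ± 0.34), which rose. In GFP- against DE the values were -2.35 ± 0.54 for COL9A3, -4.41 ± 0.82 for COL23A1, -1.16 ± 0.37 for SPARC and -1.62 ± 0.70 for COL1A1 (adjusted p = 0.082 for COL1A1). For the genes that rose they were 3.31 ± 0.33 for COL25A1, 6.83 ± 0.27 for COL21A1, 4.47 ± 0.38 for COL8A1 and 3.60 ± 0.35 for COL5A2. COL27A1, a fibrillar collagen, had 43.7 and 40.2 CPM in DE RNA, 168 and 153 CPM in GFP+ RNA and 307 and 110 CPM in GFP- RNA, and rose in GFP+ by 1.93 ± 0.42. SPARC in GFP- missed the threshold without either DE library (-1.23 and -1.12, adjusted p = 0.0841 and 0.109).

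IP footprints of GFP+ sBC were compared with IP footprints of DE. Of 51 members tested 36 rose and 3 fell, where 52.6% of all 16018 genes were called, 27.8% higher and 24.8% lower. The members' median log2 fold change was 4.05, or 3.92 with genes at 0 counts in a group set at their bound, against -0.03 over all genes. LAMC1 had 361 and 525 CPM in IP of GFP+ sBC, against 4.0 and 3.39 CPM in IP of DE (6.92 ± 0.37, adjusted p = 2.27e-05). LAMB2 had 236 and 255 CPM in GFP+ sBC, against 3.18 and 2.22 CPM in DE (6.54 ± 0.30). LAMA5 had 88.5 and 101 CPM in GFP+ sBC, against 1.77 and 1.32 CPM in DE (5.98 ± 0.32). The libraries did not overlap for any of the 3.

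The other main components rose in the same footprints. LAMA1 rose by 4.58 ± 0.44, LAMB1 by 4.20 ± 0.29, NID1 by 3.66 ± 0.32 and NID2 by 5.98 ± 0.73. FN1 had 1200 and 1500 CPM in GFP+ sBC, against 91.3 and 77.8 CPM in DE (3.99 ± 0.29), and HSPG2 rose by 3.17 ± 0.43. COL4A5 rose by 4.43 ± 0.28, COL4A4 by 5.82 ± 0.43 and COL4A2 by 1.75 ± 0.39. COL4A1 had 18.3 and 44.3 CPM in GFP+ sBC, against 34.1 and 26.2 CPM in DE, and its groups overlapped. COL5A2 rose by 4.75 ± 0.33, COL8A1 by 6.72 ± 0.66, COL21A1 by 8.66 ± 0.57 and COL25A1 by 6.72 ± 0.44. LAMB3 and COL12A1 had no count in DE footprints and were at least 173-fold and at least 104-fold higher in GFP+ sBC, with 3 counts over the 2 DE libraries as the floor. The 3 that fell were COL9A3 (-3.22 ± 0.60), COL1A1 (-3.02 ± 0.48) and SPARC (-0.95 ± 0.24). COL4A2 missed the threshold without the second DE library (1.41, adjusted p = 0.0512) or the second GFP+ sBC library (1.25, adjusted p = 0.0666). SPARC missed it without the first GFP+ sBC library (-0.77, adjusted p = 0.0868).

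**Figure D4:**
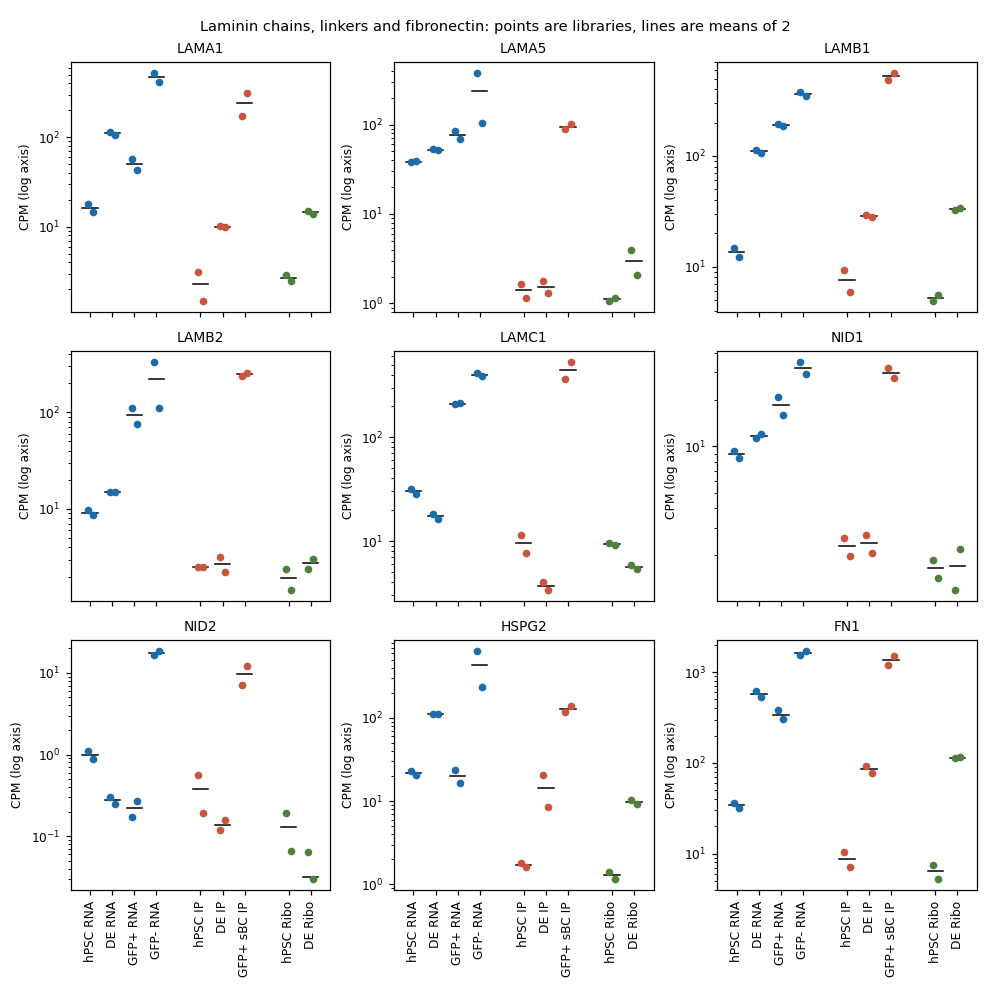
CPM (log axis) of 5 laminin chains, NID1, NID2, HSPG2 and FN1 in each library by group, with RNA in blue, IP footprints in red, Ribo in green and a line at the mean of 2 libraries. A value of 0 is drawn at 0.03 CPM. For each of the 9 genes both IP libraries of GFP+ sBC lie above those of DE, and for NID2 and HSPG2 GFP+ RNA lies far below GFP- RNA.

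The change of footprints per RNA between DE and GFP+ sBC was tested with GFP+ RNA as the RNA of sBC. Here 34 of 59 members were higher in GFP+ sBC and none lower, where 14.2% of all 22210 genes were called, 8.84% higher and 5.32% lower. No member with a lower value had an unadjusted p under 0.05, and DESeq2 called none lower. The median log2 change was 3.15, or 2.84 without the 9 members at 0 counts in a group, against -0.09 over all genes. It was 5.20 ± 0.46 for LAMA1 (adjusted p = 0.000168), 4.91 ± 0.29 for LAMA5, 5.13 ± 0.48 for HSPG2, 4.22 ± 0.31 for FN1, 5.83 ± 0.87 for NID2 and 4.34 ± 0.45 for SPARC. Smaller values were 2.88 ± 0.28 for LAMB1, 3.40 ± 0.31 for LAMB2, 2.79 ± 0.33 for LAMC1, 2.48 ± 0.32 for NID1 and 1.41 ± 0.28 for COL6A1. COL5A2 was at 0.96 ± 0.45 (adjusted p = 0.19) and COL1A1 at 1.17 ± 0.52 (adjusted p = 0.169). This comparison shares the GFP+ RNA libraries with the sort, so a member that was low in GFP+ RNA enters both. With protein-coding genes alone 38 of 59 members were higher, where 2812 of 15647 genes were higher and 653 lower. The median over those genes was 0.25.

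The result turned on which sorted RNA stood for sBC. Changing that RNA moves each value by about the gene's difference between the 2 sorted RNAs, so the shifts largely restate the sort. With GFP- RNA in place of GFP+ RNA, a setting chosen after seeing the data, 8 of 60 members were higher and none lower, where 3.92% of all genes were higher and 2.11% lower, and the members' median was 0.76. The 8 were LAMA5 (3.37 ± 0.67), COL25A1 (3.02 ± 0.56), LAMB2 (2.25 ± 0.57), FN1 (2.07 ± 0.34), LAMA1 (2.07 ± 0.48), LAMB1 (2.02 ± 0.33), LAMC1 (1.95 ± 0.37) and NID1 (1.77 ± 0.36). Of these, 7 passed with GFP+ RNA as well, and COL25A1 was at 1.49 ± 0.47 there (adjusted p = 0.0585). Values turned below 0 for members such as SPARC (-0.23), NID2 (-0.38), COL4A2 (-0.50), COL4A1 (-0.71), COL18A1 (-0.80), COL9A3 (-1.31), COL22A1 (-1.70) and COL1A1 (-1.82), none of which passed. In all, 12 of the 34 members called with GFP+ RNA lay below 0 with GFP- RNA.

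**Figure D5:**
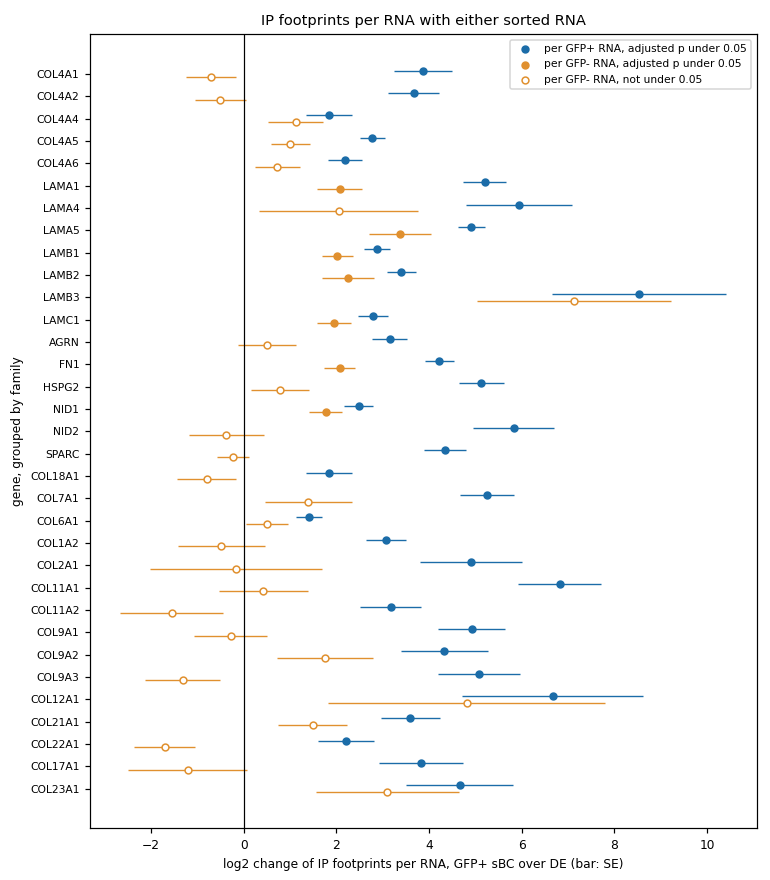
Log2 change of IP footprints per RNA, GFP+ sBC over DE, with its SE, for 33 of the 34 members called with GFP+ RNA (blue), beside the same value with GFP- RNA in its place (orange); filled points have adjusted p under 0.05. The orange points lie left of the blue ones, and those of LAMA1, LAMA5, LAMB1, LAMB2, LAMC1, FN1 and NID1 are filled.

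The members' levels in IP of GFP+ sBC can be set beside both sorted RNAs, each on the scale of its own assay. NID2 had 7.07 and 12.1 CPM in IP of GFP+ sBC, 0.172 and 0.266 CPM in GFP+ RNA and 16.5 and 18.4 CPM in GFP- RNA. SPARC had 70.2 and 96.0 CPM in IP, 4.67 and 1.95 CPM in GFP+ RNA and 98.8 and 68.1 CPM in GFP- RNA. For NID2 and SPARC the footprints of cells labelled GFP+ were nearer in CPM to GFP- RNA than to GFP+ RNA. By mean CPM 19 of the 56 members tested in the sort were nearer to GFP- RNA and 37 nearer to GFP+ RNA. By mean log2(CPM + 1) the counts were 27 and 29. CPM differs in size between the assays: in DE the members summed to 434 to 594 CPM in IP and 2200 to 2290 CPM in RNA. Such distances therefore cannot tell which RNA the footprints match. COL4A1 had 18.3 and 44.3 CPM in IP, 4.62 and 10.7 CPM in GFP+ RNA and 249 and 142 CPM in GFP- RNA. In CPM its footprints were nearer to GFP+ RNA. Relative to DE, its footprints per RNA were at 3.87 ± 0.62 with GFP+ RNA and -0.71 ± 0.54 with GFP- RNA.

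Markers of other cells were compared in the same way. Duct and progenitor genes summed to 1570 to 1680 CPM in IP of GFP+ sBC, 298 to 445 CPM in GFP+ RNA and 1910 to 2550 CPM in GFP- RNA. In DE the list summed to 1970 to 3320 CPM in IP and 1620 to 1930 CPM in RNA, so its sum does not mark duct-like cells alone. CFTR, the chloride channel of ducts, had 255 and 392 CPM in IP, 8.54 and 8.79 CPM in GFP+ RNA and 399 and 829 CPM in GFP- RNA. Acinar genes summed to 93.3 to 147 CPM in IP, 11.9 to 15.8 CPM in GFP+ RNA and 106 to 119 CPM in GFP- RNA. Of the 12 duct and progenitor genes 6 were higher in footprints per GFP+ RNA, and with GFP- RNA 0 were. Endocrine genes summed to 58400 to 81000 CPM in IP, 47300 to 53900 CPM in GFP+ RNA and 27200 to 42700 CPM in GFP- RNA, and 0 of 15 were higher and 1 lower per GFP+ RNA. Over all genes 8.84% were higher and 5.32% lower with GFP+ RNA, and 3.92% were higher with GFP- RNA. The 0 of 12 duct and progenitor genes with GFP- RNA, and the 0 and 1 of 15 endocrine genes, are near those shares. The part of duct-like cells in the footprint result was not tested.

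Genes that act on the matrix rose in footprints per GFP+ RNA as well. Of 26 receptors 23 were higher (list median 2.13), among them ITGB4 (5.51 ± 1.39), ITGB6 (5.49 ± 1.37) and ITGA5 (4.73 ± 0.41). Of 30 genes for collagen folding, modification and crosslinking 18 were higher (median 2.03), such as the procollagen protease enhancer PCOLCE2 (7.76 ± 0.98) and CRTAP, a subunit of prolyl hydroxylase complexes (3.33 ± 0.28). Of 19 other basement membrane components 11 were higher (median 2.88), and of 23 proteases and inhibitors 14 were (median 2.33). None of the 4 lists had a lower member. Over all genes 8.84% were higher with GFP+ RNA and 3.92% with GFP- RNA. In a fit of protein-coding genes alone, 2812 of 15647 were higher with GFP+ RNA. With 1 library left out ITGB4 was at 3.48 to 5.53 and ITGB6 at 5.06 to 9.90 in the fits where they missed the threshold. With GFP- RNA the counts were 7 of 28, 9 of 30, 4 of 19 and 7 of 23 in that order, with medians of 1.23, 1.62, 0.06 and 1.01.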

How the data were processed

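The members and the gene lists were chosen with earlier results of these data known. The authors deposited 1 table of expected counts (estimated counts per gene) for 57808 genes and 18 libraries, of which 16.8% to 31.3% of values per library were not whole. Per the submitters' processing notes, Salmon, DESeq2, UMI-tools, cutadapt and Bowtie were used with GRCh38; versions, their roles and the annotation release are not given in the sources used here. Counts of duplicated molecules may or may not have been removed by UMI, so precision from depth covers counting error only. Strand use is not stated, so reads of a gene and an antisense neighbour cannot be told apart. Salmon shares reads between similar transcripts, and members were taken as counted.

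Per the labels' protocols, ribosomal RNA was depleted before RNA-seq, and footprints were made with RNase I in a lysis buffer without cycloheximide, then pulled down with anti-FLAG beads for IP. Of the identifiers 57030 (98.7%) had an entry in the reference of gene names, which gave symbols, gene type and coordinates.

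After rounding, edgeR 4.0.16 under R 4.3.3 was applied to the counts, with filterByExpr, TMM, a robust quasi-likelihood F test, Benjamini-Hochberg over all genes tested, adjusted p under 0.05. In all 12 comparisons were fitted, the sort, DE against hPSC in RNA and Ribo on 4 libraries each, sorted RNA against DE on 8 RNA libraries, IP on 6, footprints per RNA as an interaction of assay and stage on 8 (Ribo) or 12 (IP) libraries, and IP against Ribo on 8. SEs come from these fits. Depth ran from 6.61 to 92.53 M counts. Folds against a group at 0 counts are bounds with 3 counts over the 2 libraries as the floor. Alternatives were RLE size factors, no filter, a strict filter (1 CPM and 10 counts in 2 libraries), DESeq2 1.42.0, the replicate block, protein-coding genes alone, all 8 RNA libraries and each library left out. Chosen after seeing the data were GFP- RNA for sBC and a crossed block in Ribo. Values in full were given for the main basement membrane genes, and for up to 6 members per direction with the largest changes past the threshold and a mean log2 CPM of at least 1, with part of these printed and 1 member, kept in all counts and medians, not reported here by name; LAMC3, COL12A1, LAMB4, LAMA2, DCN, LUM, CFTR and other members outside that rule were named after their values were seen. Lists gave up to 4 genes past the threshold per comparison. Scripts were tested on simulated data. Sequences are RefSeq promoter windows of GRCh38.p14; transcript lengths and protein sequences were not used here.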

Additional observations from a re-analysis of the deposited data

Results flagged for a closer look

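For 7 members the change against DE was opposite in the 2 sorted fractions, each past the threshold, and the sort itself passed as the test of that difference. COL4A2 was at -2.44 in GFP+ and 1.82 in GFP- against DE, and at -4.27 in GFP+ over GFP-. HSPG2 was at -2.47 in GFP+ and 1.97 in GFP-, with -4.44 in the sort. LAMA1 was at -1.15 in GFP+ and 2.07 in GFP-, with -3.23 in the sort, and FN1 at -0.76 in GFP+ and 1.48 in GFP-, with -2.25 in the sort. COL11A1 was at -1.55 in GFP+ and 4.95 in GFP-, with -6.50 in the sort. COL9A1 was at -1.91 in GFP+ and 3.37 in GFP-, with -5.28 in the sort, and COL22A1 at -2.11 in GFP+ and 1.91 in GFP-, with -4.02 in the sort. The GFP- value of COL4A2 missed the threshold without either DE library, as did the GFP+ values of FN1 without the first DE or second GFP+ library, of COL9A1 without the first GFP+ library and of COL11A1 without any 1 of the 4 GFP+ and DE libraries. The GFP+ value of COL11A1 also missed it with RLE size factors (adjusted p = 0.0522), the strict filter (adjusted p = 0.0694) and protein-coding genes alone (adjusted p = 0.0836), and that of FN1 with protein-coding genes alone (adjusted p = 0.0608). No group held 4 or more libraries, so single libraries were not screened for standing apart.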

How the results depend on the processing

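Over 216 named values and their alternatives, 2176 of 2409 checks kept the direction and the side of the threshold, 148 lost the call, 74 gained one and 11 turned sign. In the sort the count of lower members was 31 with the replicate block, 34 when no filter was set, 33 by DESeq2 and 31 with all 8 RNA libraries, and 20 to 47 with 1 library left out; 1 member was higher without a filter, by DESeq2 and with all 8 libraries, and 0 to 2 with 1 library left out. In DE against hPSC RNA the count of lower members was 9 of 44 tested with the strict filter, against 19 of 59 in the main fit. With that filter 12591 of all 15358 genes were called, 6226 of them lower. With all 8 RNA libraries 21 members were higher and 10 lower, where 6561 of 23321 genes were called, against 15591 of 20634 in the main fit. With 1 library left out the members' median there was 0.51 to 0.61. In GFP+ against DE 14 to 20 rose with 1 library left out, and in GFP- against DE 3 to 11 fell. In Ribo 1 to 20 rose and 0 to 3 fell with 1 library left out, and 1 fell with the replicate block; in IP of DE against hPSC 8 to 14 rose and 0 to 2 fell. Footprints per RNA in DE against hPSC had 1 member higher and 1 lower by DESeq2 with Ribo, and 1 lower by DESeq2 with IP. DESeq2 called 1434 of all genes there with Ribo and 752 with IP. With 1 library left out the members' median with Ribo was -0.20 to 0.58. IP over Ribo had 1 member higher in hPSC by DESeq2, where 208 of all genes were. Without a filter 1 member was higher and 1 lower in DE, where 569 and 957 of all genes were. With GFP- RNA 8 members were higher in footprints per RNA of GFP+ sBC, and SPARC (-0.23), COL4A1 (-0.71), COL4A2 (-0.50), NID2 (-0.38), COL1A1 (-1.82), COL18A1 (-0.80), COL9A3 (-1.31), COL22A1 (-1.70) and the integrin ITGB6 (-0.53) turned below 0. With 1 library left out, COL5A2 ran from -0.90 to 0.06 in the sort, above 0 without the first GFP+ library, and COL4A1 from -0.08 to 0.64 in GFP- against DE, below 0 without the first GFP- library. Over all genes the sort called 481, against 1596 when no filter was set, 1263 by DESeq2, 1258 with the replicate block and 384 to 7815 with 1 library left out. A library left alone in its group was assumed to vary like the other groups. The cause was not tested in any of these.

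Replicate numbers were not taken as pairs, since the labels do not tie them to a culture: the correlation of replicate deviations between groups ran from -0.40 to 0.09. With the replicate block 31 members were lower in the sort, where 1162 of all 19797 genes were. In Ribo 17 members were higher and 1 lower with it, where 1939 and 1710 of all 15454 genes were. The member counts of the other comparisons moved by less than 1.5 times. With the Ribo numbers crossed (correlation -0.12) 20 were higher and 2 lower. The DE IP libraries held 6.61 and 19.86 M counts, and COL5A3, LAMB3 and COL12A1 were among the members with no count in either DE IP library.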

Other observations

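Genes that act on the matrix changed in both directions in DE RNA against hPSC RNA. Of 19 other basement membrane components tested 9 rose and 6 fell. Among them FREM1, a protein of the epidermal basement membrane, rose by 5.99 ± 0.08, NTN4 by 5.22 ± 0.11 and EGFLAM, a ligand of dystroglycan, by 4.64 ± 0.19. Of 28 receptors 14 rose and 7 fell. The integrin chains ITGA9 and ITGA5 rose by 4.25 ± 0.15 and 2.57 ± 0.07, and ITGA6, a chain of the laminin receptor, fell by 1.39 ± 0.06. Of 30 genes for collagen folding, modification and crosslinking 19 rose and 7 fell, with the lysyl oxidase LOXL4 (3.33 ± 0.27) and the prolyl hydroxylase P3H2 (1.68 ± 0.06) higher and the procollagen protease ADAMTS14 (-2.33 ± 0.23) lower. Of 20 proteases and inhibitors 11 rose and 9 fell. The inhibitor TIMP3 rose by 2.83 ± 0.10, and the inhibitor TIMP4 and the gelatinase MMP9 fell by 6.88 ± 0.14 and 4.0 ± 0.19. Over all genes 38.7% were higher and 36.8% lower.

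In IP footprints of GFP+ sBC against those of DE, 21 of 28 folding genes, 16 of 23 receptors, 13 of 19 other basement membrane components and 17 of 22 proteases and inhibitors rose, and 1, 0, 2 and 0 fell, where 27.8% of all genes were higher. The list medians were 3.01, 3.44, 2.35 and 3.03 in that order, beside 4.05 for the 62 genes. COL10A1, the collagen of growth plate cartilage, had at most 3 counts in any library and passed no filter.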
